A study of Mus musculus with 21 samples.

Results

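MHC class I presentation genes were followed by name in single-cell RNA-seq of mouse CD8 T cells: H2-K1, H2-D1, B2m, H2-Q7, H2-T22, Tap1, Tap2, Tapbp and Nlrc5. These 9 genes, of 17516 gene symbols in the tables, were taken by symbol. The rule uses none of their values, but the genes were chosen with earlier results of these data known. All 21 libraries held OT1 T cells, which carry a transgenic T cell receptor. Naive cells on day 0 gave 1 library. The other 20 followed bead activation through CD3 and CD28: without cytokine on days 3 and 5, or with wild type IL-2, the mutant IL-2 named IL-2v, or IL-15, each at 5 and at 50 IU/mL on days 3, 5 and 10. The comparisons address how weakened IL-2 signalling, normal IL-2 signalling and IL-15 differ in what they do to these cells. Strain, age and sex are not given in the labels. The growth protocol describes culture up to day 10, whereas the extraction protocol speaks of sorting CD44+ CD45.1+ CD8+ cells from tumours. Day 7, which the growth protocol names, was not analysed here.

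Class I molecules show peptides from inside the cell to CD8 T cells. A heavy chain pairs with the light chain beta-2 microglobulin in the endoplasmic reticulum, a transporter brings peptides in from the cytosol, and tapasin holds the empty molecule beside that transporter until a peptide binds. Interferons, NF-kappaB and the transactivator NLRC5 are known inputs to the transcription of these genes. T cells carry class I themselves, and the OT1 receptor recognises an ovalbumin peptide bound to H-2Kb, the product of H2-K1 in C57BL/6 mice.

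H2-K1 and H2-D1 encode the classical heavy chains, B2m the light chain, and H2-Q7 (Qa-2) and H2-T22 nonclassical heavy chains. Tap1 and Tap2 encode the subunits of the peptide transporter, Tapbp encodes tapasin, and Nlrc5 the transactivator. In the GENCODE vM21 annotation of GRCm38, 7 of the 9 lie on chromosome 17: Tapbp at chr17:33915899-33929292, H2-K1 at chr17:33996017-34000347, Tap1 at chr17:34187553-34197225, Tap2 at chr17:34203527-34216321, H2-D1 at chr17:35262730-35267499, H2-Q7 at chr17:35439155-35443773 and H2-T22 at chr17:36037128-36042747. B2m lies at chr2:122147686-122153083 and Nlrc5 at chr8:94434356-94527272. H2-K1 and H2-T22 are on the minus strand and the other members on the plus strand.

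The stretches before the transcription start of 6 members are shown for their matches to a pair of search strings given below. H2-K1, H2-D1 and H2-Q7 hold both strings there, H2-T22 and B2m hold 1 of the pair and Tap1 neither. Each is the 200 bases before the start, 5′ to 3′ on the gene's own strand, from RefSeq on GRCm38.p6. That table holds a promoter for 7 of the 9 members and none for Tap2 and Nlrc5. The RefSeq start of H2-D1 lies inside the longer GENCODE gene. That of Tapbp, at base 33919478, also lies inside its GENCODE gene, and the search for Tapbp covered that start only. Capitals mark matches to GGGATTCCC, 1 form of the NF-kappaB motif, and to the interferon regulatory factor motif AANNGAAA, on either strand. Other forms of the NF-kappaB motif were not searched, so a stretch without GGGATTCCC may still hold one. The matches do not overlap each other.
H2-K1 (chr17:34000348-34000547, minus strand): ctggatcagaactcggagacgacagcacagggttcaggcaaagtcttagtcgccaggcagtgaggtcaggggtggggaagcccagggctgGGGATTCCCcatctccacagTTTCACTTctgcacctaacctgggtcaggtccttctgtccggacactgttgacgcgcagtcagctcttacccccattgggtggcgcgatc
H2-D1 (chr17:35262894-35263093, plus strand): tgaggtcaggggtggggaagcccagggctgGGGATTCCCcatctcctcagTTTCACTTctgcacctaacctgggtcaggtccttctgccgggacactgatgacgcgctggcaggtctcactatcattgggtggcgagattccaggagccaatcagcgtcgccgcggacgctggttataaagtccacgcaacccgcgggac
H2-Q7 (chr17:35438955-35439154, plus strand): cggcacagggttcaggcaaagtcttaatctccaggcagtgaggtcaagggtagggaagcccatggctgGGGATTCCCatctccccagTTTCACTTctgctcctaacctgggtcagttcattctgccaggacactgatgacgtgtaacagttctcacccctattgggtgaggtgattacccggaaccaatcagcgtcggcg
H2-T22 (chr17:36042743-36042942, minus strand): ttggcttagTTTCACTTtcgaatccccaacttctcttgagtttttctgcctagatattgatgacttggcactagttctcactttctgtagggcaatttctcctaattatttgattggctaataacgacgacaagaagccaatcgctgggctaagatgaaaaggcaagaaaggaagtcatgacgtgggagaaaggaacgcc
B2m (chr2:122147487-122147686, plus strand): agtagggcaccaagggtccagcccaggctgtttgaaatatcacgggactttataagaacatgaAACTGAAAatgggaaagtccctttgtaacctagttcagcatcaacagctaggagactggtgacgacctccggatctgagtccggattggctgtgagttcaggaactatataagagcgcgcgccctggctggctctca
Tap1 (chr17:34187356-34187555, plus strand): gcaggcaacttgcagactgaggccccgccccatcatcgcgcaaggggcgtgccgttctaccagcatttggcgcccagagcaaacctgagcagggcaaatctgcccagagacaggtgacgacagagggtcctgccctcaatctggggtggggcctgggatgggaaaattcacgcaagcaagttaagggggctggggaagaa

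H2-K1, H2-D1 and H2-Q7 each held GGGATTCCC, followed 11, 11 and 10 bases later by the interferon regulatory factor match. On either strand, GGGATTCCC was in 0.353% of the 32851 promoters of the table, which are windows of 300 bases, and AANNGAAA in 23.9%. GGGATTCCC is a fixed string without variable bases, so its share does not measure how common NF-kappaB motifs are. The search is no test of the members. B2m and H2-T22 held the interferon regulatory factor match without GGGATTCCC. The 300 bases around the RefSeq starts of Tap1 and Tapbp held neither. None of the 7 members with a promoter held the gamma-activated site motif TTCNNNGAA, which 8.30% of promoters held. The start of Tap1 lies 226 bases from that of Psmb9, an immunoproteasome subunit gene read in the opposite direction. A match describes letters only and shows no binding.

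Each condition was a single library, so the differences have no replicate check, and no test between conditions was run. Libraries of the same dose or day were set against each other as matched pairs. The libraries held 3250 to 7105 cells and 10589950 to 32648496 unique molecular identifiers (UMIs, each taken as one captured RNA molecule). Levels are CPM, the counts of a gene scaled to the library's total UMIs, a share of the captured RNA, so that fewer cells with a transcript and less of it per cell cannot be told apart in these sums. Exact Poisson 95% intervals cover counting error only. T cell markers summed to 2238 to 5519 CPM and B cell markers to 1.54 to 17.8 CPM. Markers of dendritic and other antigen presenting cells summed to 0.772 to 82.8 CPM, up to 81.5 CPM of it the class II gene H2-Ab1, which had a UMI in up to 16.8% of cells. With all cells holding a UMI of a B, myeloid or dendritic marker left out, the called members kept their calls: Tap1 was at 1.03 at activation and −0.70 between days 3 and 5 without cytokine, H2-D1 at −0.72 with cytokine on day 5 and −0.65 over the IL-2 dose, and B2m at −0.60 between days 5 and 10. Cd4 had a UMI in at most 0.514% of cells. This share and that of H2-Ab1 were taken after each cell was thinned to 2000 UMIs. Natural killer markers summed to 7.96 to 193 CPM, highest with 50 IU/mL IL-2v on day 10. Cells with a UMI of Mki67 or Top2a, genes of proliferating cells, were 2.06% of naive cells and 2.54% to 79.0% of activated ones after each cell was thinned to 2000 UMIs (Mki67/Top2a-positive cells), and ribosomal protein genes took 27.8% to 42.8% of UMIs. Differences between libraries in Mki67/Top2a-negative cells use cells without such a UMI before thinning. That set is not the complement of the shares after thinning. In each comparison below a gene was called where it lay on the same side in every pair of libraries and its median difference was at least 1.5-fold (0.58 on the log2 scale). Genes entered with at least 20 CPM on average in either arm, a floor all 9 members passed in every comparison. Comparisons often share libraries, so their values are given side by side only.

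All 9 genes were detected in all 21 libraries, and none was silent in any condition. The highest level was 1.91 times the lowest for Nlrc5, 1.93 for H2-K1, 1.96 for B2m, 2.24 for Tapbp, 2.25 for H2-D1, 2.37 for Tap2, 2.56 for H2-Q7, 2.60 for H2-T22 and 3.33 for Tap1. The median of these ranges was 2.25-fold, against 2.54-fold over 5495 genes, and 6 of 9 members spanned at least 2-fold where 75.5% of all genes did. Genes were not matched by level here, and counting error widens such a range most in genes with few UMIs. The lower median range is therefore no result about the members. After each cell was thinned to 2000 UMIs, 90.1% to 98.9% of cells had a UMI of H2-K1 and 7.02% to 13.6% one of Nlrc5 (96.7% to 99.9% and 12.8% to 28.7% without thinning). Nearly all nucleated cells carry class I, so no cell type here gave a background share for these genes.

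**Figure D1:**
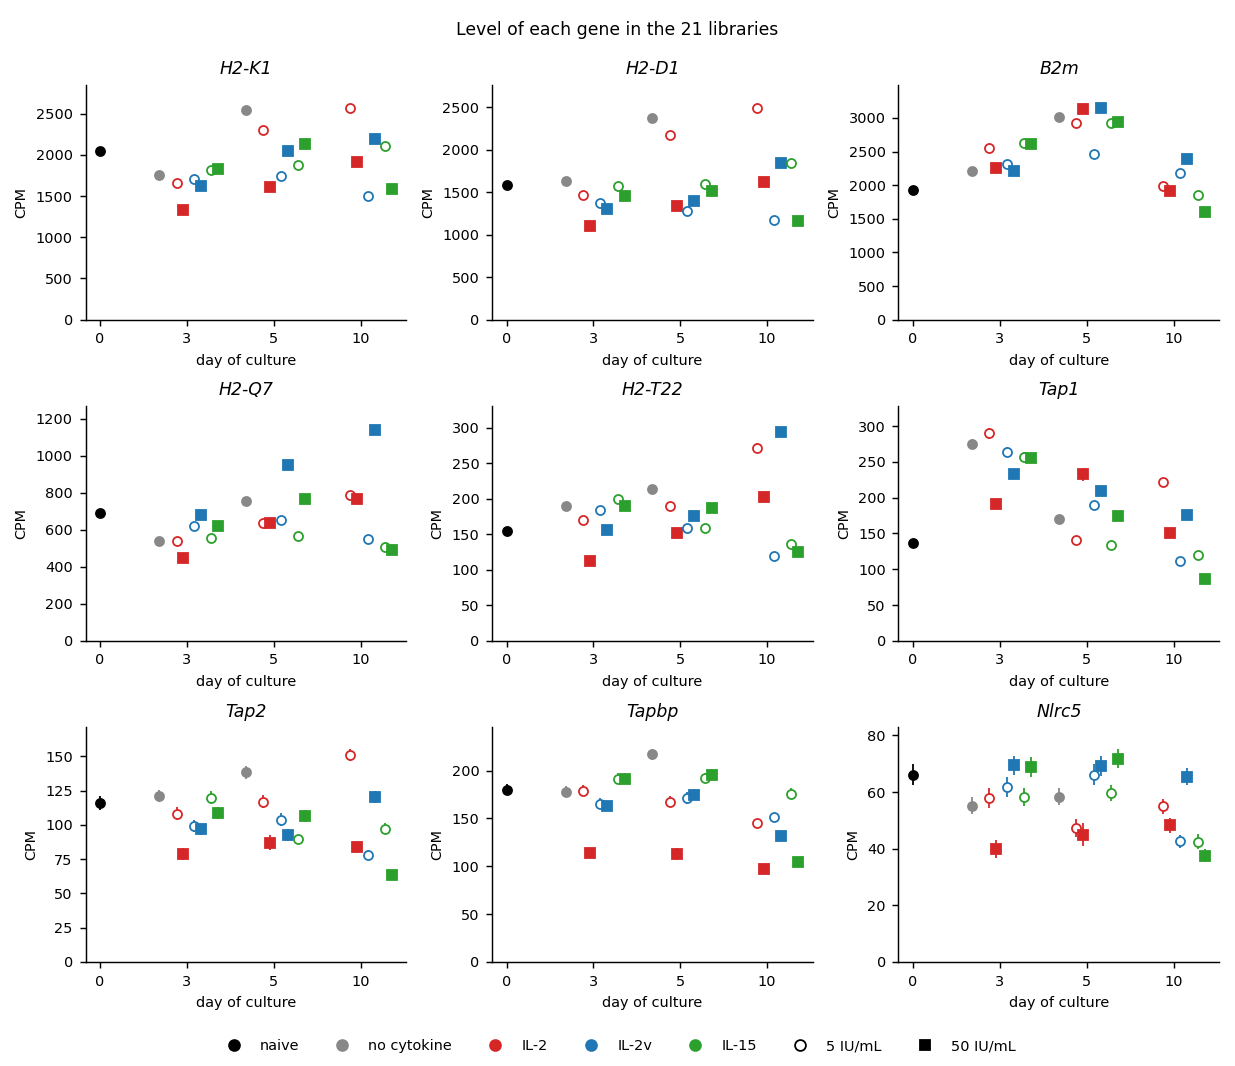
Level in CPM of each class I gene in the 21 libraries, 1 panel per gene, with the day of culture along the horizontal axis and colour and marker for the cytokine and dose (black for naive cells, open circles for 5 IU/mL and squares for 50 IU/mL). Bars are exact Poisson 95% intervals; H2-D1 is highest with 5 IU/mL IL-2 on day 10 (2492 CPM) and without cytokine on day 5 (2370.1 CPM).

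H2-K1 stood at 2046 CPM in naive cells and at 1760.1 on day 3 without cytokine. With cytokine on day 3 it was 1662 and 1329.8 with IL-2 at 5 and 50 IU/mL, while IL-2v gave 1707 and 1619.8, and IL-15 1818 and 1829.5. Every day 3 library therefore lay below the naive one. On day 5 it was 2538 without cytokine and, with IL-2, 2302 and 1604, while IL-2v gave 1747 and 2041, and IL-15 1875 and 2128. On day 10 it was 2568 and 1917 with IL-2, while IL-2v gave 1503 and 2191, and IL-15 2107 and 1588. Low dose IL-2 was highest on day 10 and high dose IL-2 lowest on day 3. In the order of all 21 levels, 7 of the 20 neighbouring pairs had overlapping intervals.

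H2-D1, the other classical heavy chain, moved much like H2-K1. It was 1591 CPM in naive cells and 1632 on day 3 without cytokine. On day 3 with cytokine it was 1466 and 1108 with IL-2 at 5 and 50 IU/mL, while IL-2v gave 1378 and 1307, and IL-15 1570.2 and 1459. All 6 cytokine libraries of day 3 were below both of those. On day 5 it was 2370.1 without cytokine and, with IL-2, 2175 and 1341, while IL-2v gave 1281 and 1396, and IL-15 1595 and 1512. On day 10 it was 2492 and 1619 with IL-2, while IL-2v gave 1176 and 1849, and IL-15 1841 and 1159. Culture without cytokine on day 5 and with 5 IU/mL IL-2 on days 5 and 10 gave the 3 highest levels. Across the 21 libraries Pearson's r between H2-K1 and H2-D1 was 0.915 and Spearman's rho 0.883, over points that share days, controls and the scaling to library totals. The counts of H2-K1 were 1.03 to 1.46 times those of H2-D1, with a median of 1.20. Near-identical neighbours limit both genes: of the 50-base windows in the last 500 bases of their transcripts, 11.8% for H2-K1 and 18.8% for H2-D1 also occur in another gene.

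B2m, the light chain of every class I molecule, did not follow the heavy chains. It was 1928 CPM in naive cells and 2215 on day 3 without cytokine. On day 3 it was 2551 and 2259 with IL-2 at 5 and 50 IU/mL, while IL-2v gave 2309 and 2210.2, and IL-15 2626 and 2605. The day 3 levels were all above the naive one. On day 5 it was 3014 without cytokine and, with IL-2, 2920.0 and 3127, while IL-2v gave 2457 and 3145, and IL-15 2922 and 2933. On day 10 it was 1989.6 and 1920.0 with IL-2, while IL-2v gave 2187 and 2396, and IL-15 1849 and 1603. All 6 day 10 levels lay below all 7 of day 5. Its ratio to H2-K1 ran from 0.775 with 5 IU/mL IL-2 on day 10 to 1.95 with 50 IU/mL IL-2 on day 5, and both Pearson's r and Spearman's rho between them over the 21 libraries were 0.18.

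H2-Q7 encodes a chain of the nonclassical molecule Qa-2. It was 691 CPM in naive cells and 539.8 on day 3 without cytokine. On day 3 it was 539.9 and 445 with IL-2 at 5 and 50 IU/mL, while IL-2v gave 620.4 and 679, and IL-15 554 and 619. On day 5 it was 754 without cytokine and 636 at both doses of IL-2, while IL-2v gave 656 and 952, and IL-15 565 and 769. The day 5 level with 50 IU/mL IL-2v was the highest of that day. On day 10 it was 788 and 765 with IL-2, while IL-2v gave 551 and 1140.3, and IL-15 506 and 489. The last IL-2v value, from 31123 UMIs with an interval of 1128 to 1153 CPM, was the highest of the 21. In this gene 9.77% of the 50-base windows at the transcript ends are shared, nearly all with its neighbour H2-Q5.

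H2-T22 encodes a class I-like molecule of the T region that T cells with a gamma-delta receptor can bind. It was 155 CPM in naive cells and 189 on day 3 without cytokine. It was highest with 50 IU/mL IL-2v on day 10 at 294 CPM and next with 5 IU/mL IL-2 on day 10 at 272, and lowest with 50 IU/mL IL-2 on day 3 at 113. The other libraries ranged from 119 to 213 CPM. As 31.6% of its end windows also occur in another gene, most often H2-T10, which is not among the symbols of the tables, its counts may hold reads of both.

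Tap1 had the widest range. It was 136 CPM in naive cells (interval 131 to 142) and 275 on day 3 without cytokine (268 to 282). On day 3 it was 290.1 and 191 with IL-2 at 5 and 50 IU/mL, while IL-2v gave 264 and 233, and IL-15 256 at both doses. All 7 day 3 libraries thus lay above the naive one. On day 5 it was 170.2 without cytokine and, with IL-2, 141 and 233, while IL-2v gave 189 and 209.7, and IL-15 134 and 174. On day 10 it was 222 and 151 with IL-2, while IL-2v gave 111 and 176, and IL-15 119.6 and 87.1. Its ratio to Tap2, the other subunit of the transporter, was lowest in naive cells at 1.18 and highest with 5 IU/mL IL-2 on day 3 at 2.68. Over the 21 libraries Pearson's r was 0.858 between Tap1 and Psmb9 (Spearman's rho 0.838) and −0.077 between Tap1 and H2-K1. Exons of Tap1 and Psmb9 overlap on opposite strands, which the counting could confuse where it ignored strand.

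Tap2, Tapbp and Nlrc5 had fewer UMIs than H2-K1, H2-D1, B2m and H2-Q7, and more of their levels overlapped. Tap2 was 116 CPM in naive cells, highest with 5 IU/mL IL-2 on day 10 at 151 and lowest with 50 IU/mL IL-15 on day 10 at 63.7. Tapbp was 180.2 in naive cells, highest without cytokine on day 5 at 217 and lowest with 50 IU/mL IL-2 on day 10 at 97.1. Nlrc5, the transactivator, was 66 in naive cells, highest with 50 IU/mL IL-15 on day 5 at 71.8 and lowest with the same cytokine and dose on day 10 at 37.5. In no activated library did the interval of Nlrc5 lie wholly above the naive one, and in 12 of 20 it lay wholly below. Of the 20 neighbouring pairs in the order of levels, 19 overlapped for Nlrc5, 17 for Tap2 and 16 for Tapbp. Nlrc5, Tap2, Tapbp and H2-T22 each overlap genes on the opposite strand, so the same limit applies to them, and Tapbp also overlaps Zbtb22 on its own strand.

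**Figure D2:**
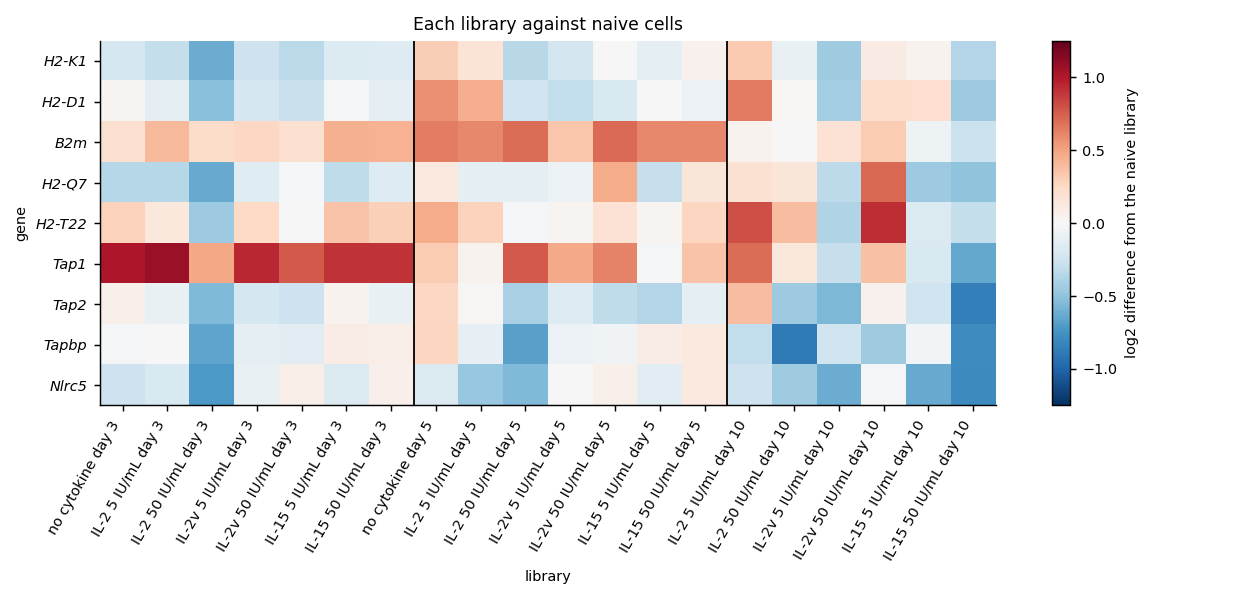
Log2 difference in level of each class I gene between each of the 20 activated libraries (columns, ordered by day and cytokine) and the naive library, as colour. Tap1 is above the naive level in all 7 day 3 columns, and 50 IU/mL IL-15 on day 10 is below it in all 9 genes.

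Tap1 was the 1 member called between naive cells and day 3 of activation, 2 libraries that also differ by the time in culture. On day 3 without cytokine against naive cells, Tap1 rose 2.01-fold (log2 1.01), 1 of 9 members, where 19.6% of 6171 genes were called higher. No member was called lower, where 23.2% of genes were. H2-Q7 was lower, at −0.36 on the log2 scale, Nlrc5 at −0.26 and H2-K1 at −0.22, while H2-T22 was higher by 0.29 and B2m by 0.20. H2-D1, Tap2 and Tapbp lay within 0.06 of the naive level and change sign under another scaling of the libraries. The median over the members was 0.036, against −0.11 over all genes. The share of Mki67/Top2a-positive cells was 2.06% in naive cells and 50.6% on day 3, and in the negative cells Tap1 differed by 1.02. Of 10 peptide loading and trimming genes 1 was called higher and of 5 proteasome genes 1, and of 4 other heavy chain genes 2 were called lower. Psmb9 rose by 1.04 and the chaperone gene Canx by 0.64, and the heavy chain genes H2-Q4 and H2-M3 fell by 0.61 and 0.63. Of 13 interferon-stimulated genes tested, 3 were called higher, the GTPase genes Iigp1 (2.46), Igtp (1.72) and Gbp2 (1.30), and 5 lower, among them Isg15 (−2.54). Of 16 transcriptional regulators tested 3 were called higher, among them Irf8 (3.98), and 2 lower, Irf9 (−0.68) and Rela (−0.71). Of 9 interferon, receptor and signalling genes 2 were called higher, among them Ifngr1 (1.89), and 3 lower, among them Ifngr2 (−1.34).

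Between days 3 and 5 without cytokine, heavy and light chains were higher and Tap1 fell. H2-D1 was higher by 0.54, H2-K1 by 0.53, H2-Q7 by 0.48 and B2m by 0.44, all short of 1.5-fold. Tap1 fell by 0.69, the 1 member called lower of 9, where 18.3% of 5785 genes were. No member was called higher, where 12.5% of genes were. With library factors from the trimmed mean of M values (TMM), which let a few abundant genes weigh less, Tap1 stood at −0.58 and was not called, while 3 members were then called higher. The share of Mki67/Top2a-positive cells was 50.6% on day 3 and 8.40% on day 5, and in Mki67/Top2a-negative cells Tap1 differed by −0.68. In the same interval 8 of 11 interferon-stimulated genes tested were called higher (median 0.90), as were Irf9 (0.84) and Irf1 (0.60), which carry the interferon signal to the nucleus, and of 5 proteasome genes Psmb10 (0.82) and Psme1 (0.63). Of 4 other heavy chain genes H2-M3 was called higher (0.79), and of 10 loading and trimming genes Canx was called lower (−1.13) and 0 higher. Of 14 transcriptional regulators tested 6 were called higher and 3 lower, Irf8 (−2.03) among the latter, and of 8 interferon, receptor and signalling genes 3 and 0.

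On day 3 the 6 cytokine cultures stood close to the culture without cytokine, with one exception. No member was called higher or lower, where 3.31% and 0.416% of 5772 genes were. Medians over the 6 libraries ran from −0.22 for Tap2 to 0.13 for B2m. The culture with 50 IU/mL IL-2, picked out after its values were seen, was below the control in 8 of 9 members and past 1.5-fold in 3 of them, where 7.83% of genes were that much lower. With TMM factors 9 of 9 were below and 6 past 1.5-fold, and on totals without ribosomal and mitochondrial genes 9 and 5. H2-T22 was lower there, at −0.74, Tapbp at −0.65 and Tap2 at −0.61.

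By day 5 the cytokine cultures had less H2-D1 than the culture without cytokine. It was lower in 6 of 6 and fell by a median of 0.71, with single differences from −0.89 with 5 IU/mL IL-2v to −0.12 with 5 IU/mL IL-2. It was the 1 member called lower of 9, where 6.88% of 5756 genes were, and none was called higher, where 11.6% were. Leaving out any 1 of the cytokine cultures kept the median between −0.76 and −0.65. All 6 comparisons use the same control library, which held fewer Mki67/Top2a-positive cells (8.40%) than any cytokine culture of that day (12.5% to 60.4%). In Mki67/Top2a-negative cells the median of H2-D1 was −0.69. H2-K1 was lower in 6 of 6 as well, with a median of −0.38, and so were Tap2 (−0.49), H2-T22 (−0.35) and Tapbp (−0.33). B2m (−0.04) and Nlrc5 (0.11) had no common direction. With 50 IU/mL IL-2, also picked out after its values were seen, 4 members were past 1.5-fold lower, where 19.5% of genes were: Tapbp at −0.94, H2-D1 at −0.82, and H2-K1 and Tap2 at −0.66.

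The other genes of the pathway had calls in both directions in the cytokine cultures of day 5. Of 4 other heavy chain genes tested 2 were called lower, the nonclassical H2-T23 (Qa-1) and H2-M3, which fell by 0.84 and 0.65. Of 5 proteasome genes 2 were, and of 10 loading and trimming genes 1 was called lower and 3 higher. Psmb10 fell by 0.81, Psme2 by 0.74 and Tapbpl, which encodes a tapasin-related peptide editor, by 1.08. Of 11 interferon-stimulated genes tested, 8 were called lower and 0 higher (median −0.93). Of 14 transcriptional regulators 3 were called lower, among them Irf1 (−0.80), and 1 higher. Canx, by contrast, rose by 1.33, as did the endoplasmic reticulum channel gene Sec61a1 by 0.61.

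At the higher dose of IL-2 H2-D1 fell. At 50 against 5 IU/mL on days 3, 5 and 10, H2-D1 was lower, at −0.40, −0.70 and −0.62, H2-K1 at −0.32, −0.52 and −0.42, and Tapbp at −0.65, −0.57 and −0.58. Tap2 was lower, at −0.45, −0.42 and −0.84 and H2-T22 at −0.58, −0.32 and −0.42. Nlrc5 was lower on 3 of 3 days, but higher on 1 of them with TMM factors, and H2-Q7 was level on day 5. On day 10 the members' median was −0.42, against −0.29 over all genes, of which 32.9% were higher. With TMM factors it was −0.12, with 3 of 9 members higher and 0 past 1.5-fold. Over the 3 days together the members' median moved the other way, from −0.42 to −0.50 with TMM factors. H2-D1 fell by a median of 0.62, the 1 member called lower of 9, where 7.42% of 5879 genes were. No member was called higher, where 9.12% were. The call of H2-D1 rests on days 5 and 10: the median was −0.51 without day 5 and −0.55 without day 10, and −0.45 with TMM factors. Tapbp, at a median of −0.58 just short of the limit, was past it in several settings, such as −0.70 in Mki67/Top2a-negative cells. B2m had no common direction (−0.18, 0.10 and −0.05), and Tap1 was lower on days 3 and 10 (−0.60 and −0.56) and higher on day 5 (0.72). The share of Mki67/Top2a-positive cells was higher at the higher dose on days 3 and 5 (54.8% and 62.8%, then 12.5% and 46.8%) and lower on day 10 (11.7% and 8.05%). Its part in these differences was not tested beyond the negative cells, where H2-D1 differed by −0.64.

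Of 10 interferon-stimulated genes tested 6 were called lower and 0 higher (median −0.75), where 7.42% of all genes were called lower. Of 14 transcriptional regulators 3 were called lower, among them Irf1 (−1.05) and Irf9 (−0.97), and 1 higher, Irf8, which rose from a mean of 63.4 to 162 CPM. Of 5 proteasome genes Psmb10 fell by 1.02 and Psmb9 by 0.60, and of 5 other heavy chain genes H2-T23 fell by 1.18 and H2-M3 by 0.76 while H2-Q10 rose by 1.33. Of 10 loading and trimming genes Tapbpl fell by 1.20 and 3 were called higher. Among these, Canx rose by 1.12 and Hspa5, the chaperone BiP, by 1.11.

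**Figure D3:**
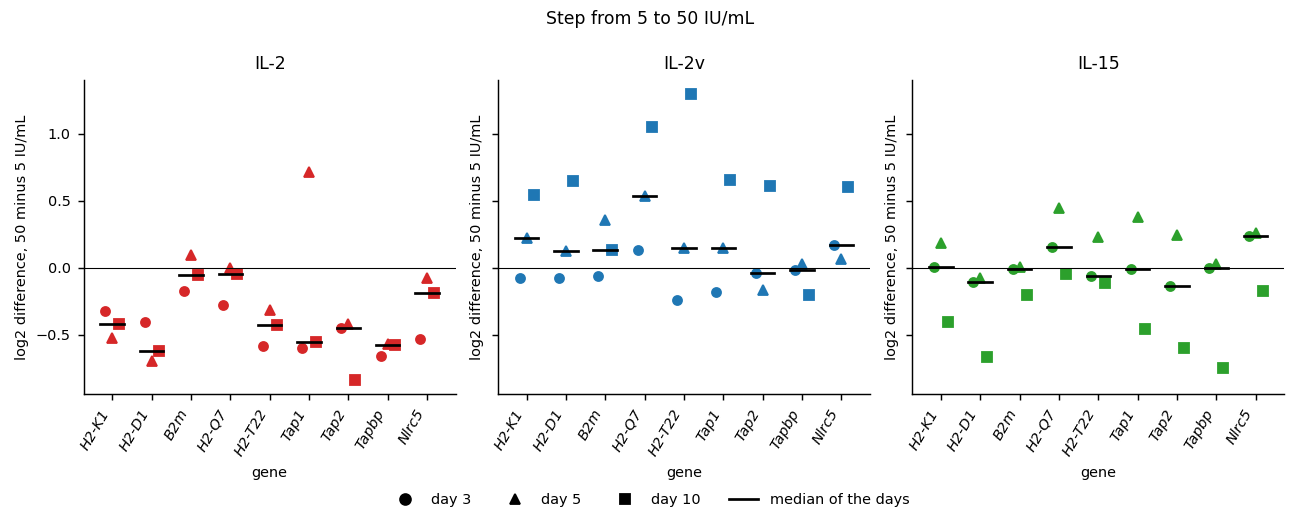
Log2 difference in level between 50 and 5 IU/mL for each class I gene (horizontal axis), with 1 panel per cytokine, 1 point per day (circle, triangle and square for days 3, 5 and 10) and a bar at their median. For IL-2, H2-K1, H2-D1, Tap2, Tapbp and H2-T22 are below 0 on all 3 days, and for IL-2v H2-Q7 is above 0 on all 3.

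For IL-2v the dose difference ran the other way in H2-Q7. It was higher at 50 IU/mL on 3 of 3 days, by 0.13, 0.54 and 1.05, with a median of 0.54 that was just short of the limit. With TMM factors the median was 0.36. No member was called higher or lower over the 3 days, where 5.26% and 2.76% of 5913 genes were. On days 3 and 5 the members differed by −0.24 to 0.54. On day 10, the day picked after its values were seen, 8 of 9 were higher at 50 IU/mL and 6 past 1.5-fold, where 9.76% of genes were that much higher. H2-T22 was 1.30 higher there, Tap1 0.66, H2-D1 0.65, and Tap2 and Nlrc5 0.61, while Tapbp was at −0.20. Of 5 other heavy chain genes tested over the 3 days, H2-Q6 (0.81) and H2-Q10 (1.52) were called higher and none was called lower. The share of Mki67/Top2a-positive cells was lower at the higher dose on day 10 (31.7% and 17.2%).

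The IL-15 dose left the members close on days 3 and 5. Their differences lay between −0.14 and 0.24 on day 3 and between −0.08 and 0.44 on day 5. Over the 3 days no member was called higher or lower, where 2.44% and 0.579% of 5523 genes were. On day 10 all 9 were lower at 50 IU/mL, 3 of them past 1.5-fold, where 8.76% of genes were: Tapbp at −0.75, H2-D1 at −0.67 and Tap2 at −0.60. With TMM factors 7 of 9 were lower on that day and 1 past 1.5-fold (median −0.28, from −0.41), and on totals without ribosomal and mitochondrial genes 9 and 2.

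IL-2v against IL-2 at matched dose and day gave 6 pairs, and no member was called. None was called higher, where 5.05% of 5839 genes were, and none lower, where 0.839% were. At 50 IU/mL 8, 8 and 9 of 9 members were higher with IL-2v on days 3, 5 and 10, where 56.1%, 64.4% and 60.8% of genes were. All members but B2m and Tap1 were higher on each of these days. At 50 IU/mL H2-Q7 was 0.61, 0.58 and 0.58 higher with IL-2v on days 3, 5 and 10, and Nlrc5 was 0.79, 0.61 and 0.43 higher. Tapbp was 0.52, 0.63 and 0.44 higher. At 5 IU/mL the same genes differed by 0.20, 0.04 and −0.52 (H2-Q7), 0.09, 0.48 and −0.36 (Nlrc5) and −0.11, 0.03 and 0.06 (Tapbp). The low dose on day 10 stood apart: 7 of 9 members were lower with IL-2v and 5 past 1.5-fold, where 20.5% of genes were. H2-T22 was at −1.19, H2-D1 at −1.08, Tap1 at −0.99, Tap2 at −0.94 and H2-K1 at −0.77. IL-2v and IL-2 differ by mutation of the cytokine, which the labels do not describe further.

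**Figure D4:**
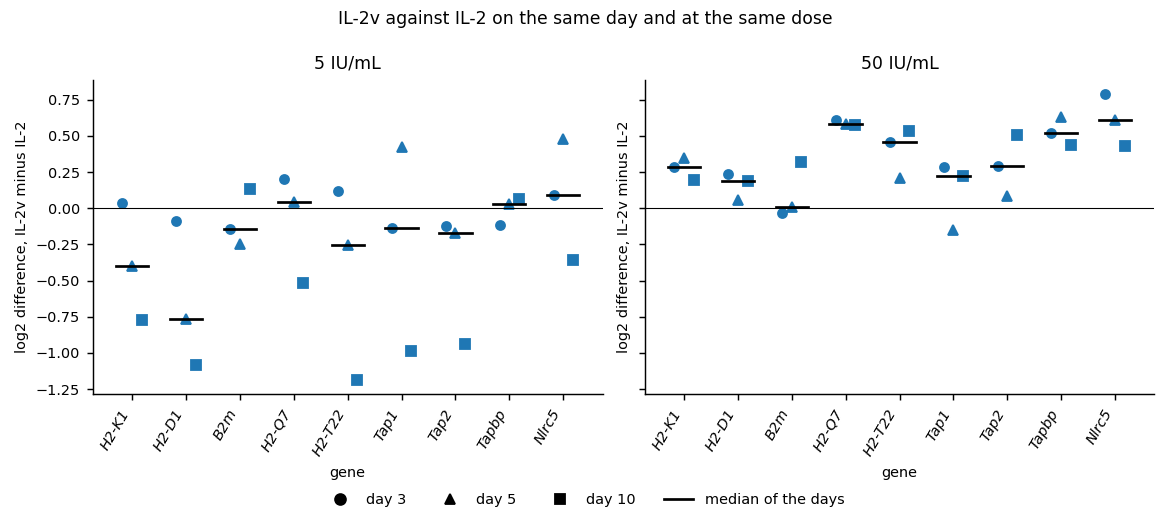
Log2 difference in level between IL-2v and IL-2 at the same dose and day for each class I gene (horizontal axis), with 1 panel per dose, 1 point per day and a bar at their median. At 50 IU/mL all genes but B2m and Tap1 are above 0 in all 3 pairs, and H2-K1, H2-D1, H2-T22, Tap1 and Tap2 are lowest at 5 IU/mL on day 10.

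IL-15 against IL-2 changed side between days. Over the 6 pairs no member was called higher or lower, where 1.42% and 3.45% of 5718 genes were. At 50 IU/mL on day 3 all 9 were higher with IL-15 and 3 past 1.5-fold, where 7.5% of genes were: Nlrc5 at 0.78, and Tapbp and H2-T22 at 0.75. On day 10, 8 of 9 were lower with IL-15 at each dose. At 5 IU/mL 4 were past 1.5-fold, where 20.4% of genes were, namely H2-T22 (−0.99), Tap1 (−0.89), and H2-Q7 and Tap2 (both −0.64). At 50 IU/mL 3 were, where 18.7% of genes were, namely Tap1 (−0.78), H2-T22 (−0.68) and H2-Q7 (−0.65). On totals without the genes of ribosomal proteins and mitochondria, 2 members were past 1.5-fold at 5 IU/mL and 0 at 50 IU/mL, where the members' median moved from −0.40 to −0.15. With TMM factors 2 and 3 members were. Tapbp was the member above IL-2 in all 6 pairs, with a median of 0.24. Shares near these backgrounds are no result about the members.

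IL-2v against IL-15 also gave no call over the 6 pairs, where 7.75% of 5810 genes were called higher and 2.07% lower. H2-Q7 was higher with IL-2v in 6 of 6, by 0.12 to 1.22. Nlrc5 was higher in 5 of 6 pairs, while H2-K1, H2-D1, Tapbp and H2-T22 were lower in 5 of 6. The members' median was −0.096, against 0.10 over all genes. On day 10 at 50 IU/mL all 9 members were higher with IL-2v and 6 past 1.5-fold, where 17.6% of genes were. In each of the other pairs 2 to 4 of 9 members were higher with IL-2v. H2-Q7 and H2-T22 were each 1.22 higher, Tap1 1.01, Tap2 0.91, Nlrc5 0.78 and H2-D1 0.67. All 9 were also higher in that IL-2v library than with IL-2 at the same dose and day, by 0.19 to 0.575, where 60.8% of genes were higher. Of the members 0 were past 1.5-fold there, against 605 of 5839 genes. These pairs were picked after their values were seen.

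The IL-2v library at 50 IU/mL on day 10 was also the one with the highest natural killer marker sum, 193 CPM, of which Eomes and Klrb1c, genes that activated CD8 T cells can express, gave 156 and 36.7, while Ncr1 was at most 0.0336 in any library. In it 52.1% of cells, not thinned, had a UMI of such a marker. The share was 4.95% to 36.7% in the other day 10 libraries, and 18.6% with 50 IU/mL IL-15. In the IL-2v library the cells with such a UMI were deeper, with a median of 5549.5 UMIs against 4301.5. There H2-Q7 was 1125 CPM in the cells with such a UMI and 1162 in the others, and H2-T22 272 and 324. With the cells that had such a UMI left out of both libraries, the difference from IL-15 was 1.26 for H2-Q7 and 1.37 for H2-T22, and all 9 members were higher.

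Over time, the members as a group had no common course. From day 3 to day 5 with cytokine, H2-Q7, B2m and H2-K1 were higher in 6 of 6 pairs, with medians of 0.27, 0.18 and 0.24, and Tap1 was lower in 5 of 6, with a median of −0.51. No member was called higher or lower, where 2.3% and 8.41% of 5912 genes were. Tap1 was the exception in the other direction with 50 IU/mL IL-2, where it was 0.28 higher on day 5.

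From day 5 to day 10 B2m fell in 6 of 6 pairs, by a median of 0.61. Single differences ran from −0.87 with 50 IU/mL IL-15 to −0.17 with 5 IU/mL IL-2v. It was the 1 member called lower of 9, where 4.44% of 5676 genes were, and none was called higher, where 0.599% were. The call was lost at −0.55 without any 1 of 50 IU/mL IL-2, 5 IU/mL IL-15 or 50 IU/mL IL-15, and at −0.52 with TMM factors, under which 1 of 6 pairs was higher. In Mki67/Top2a-negative cells B2m differed by −0.60. The heavy chains had no such course: H2-D1 was higher in 4 of 6 pairs (median 0.20), as was H2-K1 (0.13). With 50 IU/mL IL-15 all 9 members were lower on day 10 and 6 past 1.5-fold, where 13.8% of genes were, with Tap1 at −0.99, Nlrc5 at −0.92, Tapbp at −0.90 and B2m at −0.87. That library had the highest ribosomal protein share, 42.8%, and the part of this in the CPM was not tested beyond totals without ribosomal protein and mitochondrial genes, under which all 9 stayed lower and 4 were past 1.5-fold. Of 14 transcriptional regulators tested 4 were called lower from day 5 to day 10, among them Irf1 (−0.77) and Irf2 (−0.76).

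Within libraries, Mki67/Top2a-positive cells carried somewhat more H2-Q7 and Tap1 than the other cells. With every cell thinned to 2000 UMIs, H2-Q7 was higher in the positive cells in 21 of 21 libraries, with a median log2 difference of 0.23 and a range of 0.01 to 0.65. The count was 20 of 21 when cells were thinned to 1000 UMIs and also when they were not thinned. Tap1 was higher in 21 of 21 as well, with a median of 0.17, but in 16 and 15 libraries under those settings. H2-D1 was higher in positive cells in 8 of 21, with a median of −0.05. Cells of a library are not replicates, and the count of libraries is a description.

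**Figure D5:**
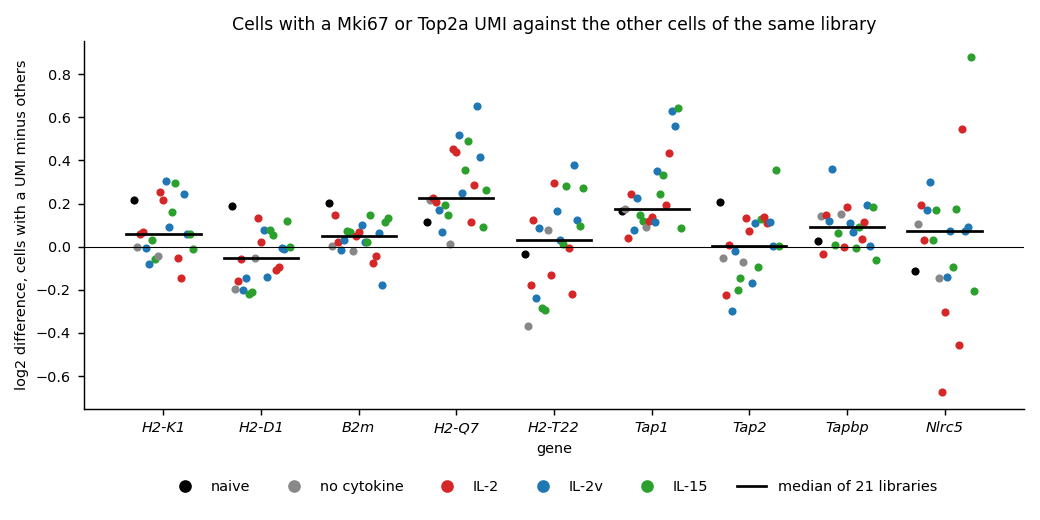
Log2 difference in level between cells with a UMI of Mki67 or Top2a and the other cells of the same library for each class I gene (horizontal axis), after thinning to 2000 UMIs, with 1 point per library coloured by cytokine and a bar at their median. H2-Q7 and Tap1 are above 0 in 21 of 21 libraries and H2-D1 in 8.

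The mean course of the members over the 21 libraries was most like that of Gbp6, an interferon-induced GTPase gene, among 5437 other genes, with Pearson's r of 0.875. Next were 9330175E14Rik (0.80), which overlaps Nlrc5 on the opposite strand, Rgs3 (0.74), Znrd1 (0.74) and Yipf3 (0.73). Tap1 alone was most like Ppp1r16b (0.93) and Lrmp (0.92). These are likenesses over 21 points that share days, controls and library totals.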

How the data were processed

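Droplet single-cell RNA-seq had been run on 21 libraries of OT1 CD8 T cells, 1 per condition. The authors deposited raw UMI counts per gene and cell, whole numbers with no normalization. The submitters' processing notes name Cell Ranger, Seurat 4.0.1 and 3.0.2 and mm10, with no role or order. The annotation and any strand setting are not given in the sources used here. The 6 libraries titled 50 IU/mL IL-2 or IL-15 carry treatment labels naming interleukin-3 or interleukin-16, and the titles were followed.

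Cells with at least 1000 UMIs, 500 genes and at most 10% mitochondrial counts were kept (106456 cells, 2 removed). No doublet caller was run. Counts were summed per library and scaled to CPM with a pseudocount of 1 for logs. Genes needed 20 CPM on average in either arm. A gene was called at the same sign in every pair and a median of 1.5-fold. With 1 library per condition no p-value is given. Shares of cells were compared after thinning to 2000 UMIs, which left out 4051 cells. The calling script was tested on simulated data. Alternatives used edgeR 4.0.16 for TMM factors only, other totals, floors and cell filters. Python 3.11.15, numpy 2.4.6, scipy 1.17.1 and pandas 2.3.3 were used. Promoters came from RefSeq (GRCm38.p6) and gene positions from GENCODE vM21.

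All 9 members are named, other genes of 6 lists (heavy chains, peptide loading and trimming, proteasome, regulators, interferon input, interferon-stimulated genes) where they were called, and the genes most like the members by Pearson's r. The members and lists were chosen with earlier results of these data known. Pairs of single libraries were picked after their values were seen.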

Additional observations from a re-analysis of the deposited data

Results flagged for a closer look

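3 genes had effects of opposite sign in the 2 groups of a contrast in every pair of libraries, H2-Q7 did but for 1 pair at the same level, and none of these differences was tested, since each condition is 1 library. H2-D1 was lower with IL-2v than with IL-2 at 5 IU/mL on 3 of 3 days (median log2 difference −0.76) and higher at 50 IU/mL on 3 of 3 days (0.19). Tap2 did the same, at −0.17 and 0.29. With TMM factors IL-2v was higher in 2 of the 6 pairs for each of these genes, in place of 3. Nlrc5 was lower at 50 than at 5 IU/mL of IL-2 on 3 of 3 days (−0.19) and higher at 50 IU/mL of IL-2v (0.17). With TMM factors, or with ribosomal protein and mitochondrial genes left out of the totals, the latter held on 2 of 3 days, and with TMM factors the former did too. H2-Q7 was at −0.042 over the IL-2 dose and at 0.54 over the IL-2v dose, and its IL-2 level on day 5 was 636 CPM at both doses. With TMM factors H2-Q7 was higher at the higher IL-2 dose on 1 of 3 days.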

How the results depend on the processing

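Libraries were paired by dose and day for the calls, and no model with dose and day as blocks was fitted. In 15 planned settings and 6 that left out a cytokine condition, added after the data were seen, 523 summary values stayed and 37 moved, a move being more than 1 SD over the pairs for a median (the counting interval where there is 1 pair) or over 1.5 times for a count. Of single genes 1575 stayed, 45 moved, 12 lost a call, 18 gained one and 0 reversed. The members' median under activation (0.036) was 0.076 at 5% mitochondrial UMIs, 0.051 without cells above 2 times the median UMIs, 0.14 in Mki67/Top2a-negative cells, 0.092 with TMM, −0.028 on totals without ribosomal protein and mitochondrial genes and 0.021 as a mean of cells. That of day 5 against day 3 without cytokine (0.29) was 0.40, 0.32, 0.35, 0.40, 0.30 and 0.26 in the same order and 0.27 with a pseudocount of 10, and TMM called 3 members higher and 0 lower. With TMM the median of cytokine against none on day 5 was −0.43, of the IL-2 dose −0.50 and of day 5 against day 3 with cytokine 0.22. At 2-fold 0 members were called lower in day 5 against day 3 without cytokine, cytokine against none on day 5, the IL-2 dose and day 10 against day 5. Members called lower over the IL-2 dose were 2 at 5% mitochondrial UMIs, in Mki67/Top2a-negative cells, on non-ribosomal totals, as a mean of cells, without day 3 and without day 5. Called higher over the IL-2v dose were 1 in Mki67/Top2a-negative cells, 2 without day 3 and 1 without day 5. IL-15 against IL-2 called 1 lower without day 3. Day 10 against day 5 called 0 lower with TMM, and 0 to 2 when each cytokine condition was left out (2 without 5 IU/mL IL-2, 0 without 50 IU/mL IL-2 or either IL-15 dose). The cause of these moves was not tested.

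TMM moved the median of all genes by at most 0.15 and non-ribosomal totals by at most 0.10, on the log2 scale. The share of higher among all calls moved by over 10 points in 9 of 12 comparisons with TMM: from 40.5% to 53.9% in day 5 against day 3 without cytokine, 88.8% to 67.6% and 62.7% to 46.6% in cytokine against none on days 3 and 5, 85.8% to 69.9% for IL-2v against IL-2, 78.9% to 60.9% for IL-2v against IL-15, 65.6% to 44.9% and 80.8% to 68.1% for the IL-2v and IL-15 doses, 21.5% to 40.5% for day 5 against 3 and 11.9% to 40.4% for day 10 against 5. On non-ribosomal totals it moved so in 5, to 76.8% for cytokine on day 3, 55.0% (from 29.1%) for IL-15 against IL-2, 57.8% for IL-2v against IL-15, 44.1% (from 55.1%) for the IL-2 dose and 24.3% for day 10 against 5. Of 216 values of members under these scalings 17 changed sign, none larger than 0.15 before. Nlrc5, with 475 to 1783 UMIs per library, is the member whose depth limits it most.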
